A study of Mus musculus with 7 samples.

Results

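Arginine and tryptophan catabolism in dendritic cells was examined through 9 genes chosen by name, namely Arg1, Arg2, Nos2, Ass1, Ido1, Ido2, Kmo, Kynu and Il4i1. All 9 were among the 28666 genes of the deposited table and all 9 passed the filter on low counts, which left 17461 genes. The libraries came from murine bone marrow-derived dendritic cells (BMDCs), and the labels divide them into 3 immature and 4 mature samples. Per the study's methods, the mice were female C57BL/6 animals aged 6 to 8 weeks, and marrow cells were cultured for 7 days with 20 ng/mL GM-CSF and 10 ng/mL IL-4. The BMDCs of both groups had shared a Transwell with cells of the mouse colon carcinoma line MC38 and were sorted by flow cytometry. The study's text places the sort after 24 h of DON, a glutamine antagonist, whereas a figure legend names either the solvent DMSO or DON at 5 micromolar for the sequenced cultures. The labels give the maturation state alone, with no treatment, animal, culture or sort gate for any library, so which libraries had received DON is not known here. The study's statistics section states in general that its results rest on 3 or more independent biological experiments, unless a legend says otherwise. It does not say which animal or culture each of these libraries came from. The p-values therefore measure the spread between these samples, which may be technical.

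Myeloid cells break down arginine along competing routes. Arginases, the cytosolic ARG1 and the mitochondrial ARG2, hydrolyse arginine to ornithine and urea, whereas the inducible nitric oxide synthase NOS2 converts it to nitric oxide and citrulline, which ASS1 feeds back toward arginine. Tryptophan is opened to N-formylkynurenine by IDO1 and IDO2, and KMO and KYNU carry kynurenine further along the path that can end in NAD. IL4I1 is a secreted L-amino acid oxidase that deaminates aromatic amino acids, tryptophan among them. Loss of arginine or tryptophan from the surroundings restrains T cells, so these enzymes are known as brakes that myeloid cells place on lymphocytes.

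Mature BMDCs carried far less Arg1 RNA than immature BMDCs and more RNA of Kynu and Kmo. Counts assigned to Il4i1 were also higher, but most of its exon bases are shared with Tbc1d17 on the opposite strand, which was higher too. A gene was called changed at a log2 fold change of at least 1 in either direction with an edgeR adjusted p below 0.05, the criteria of the study's methods. By that rule 3 members rose and 1 fell. Across all tested genes 23.1% were called, 13.2% higher and 9.95% lower in mature cells. The median log2 fold change was 1.44 over the members and 0.05 over all tested genes. On the adjusted p alone 6 of 9 members passed, 5 of them higher in mature cells, against 46.1% of all genes. For 6 of 9 members every library of one group lay beyond every library of the other, against 52.1% of all genes, so on either of these counts a gene taken from the whole table would often have passed too. Levels below are given as CPM (a gene's share of the library's counts, after TMM scaling) for comparisons between libraries, and as FPKM, which accounts for gene length, for comparisons between genes.

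**Figure D1:**
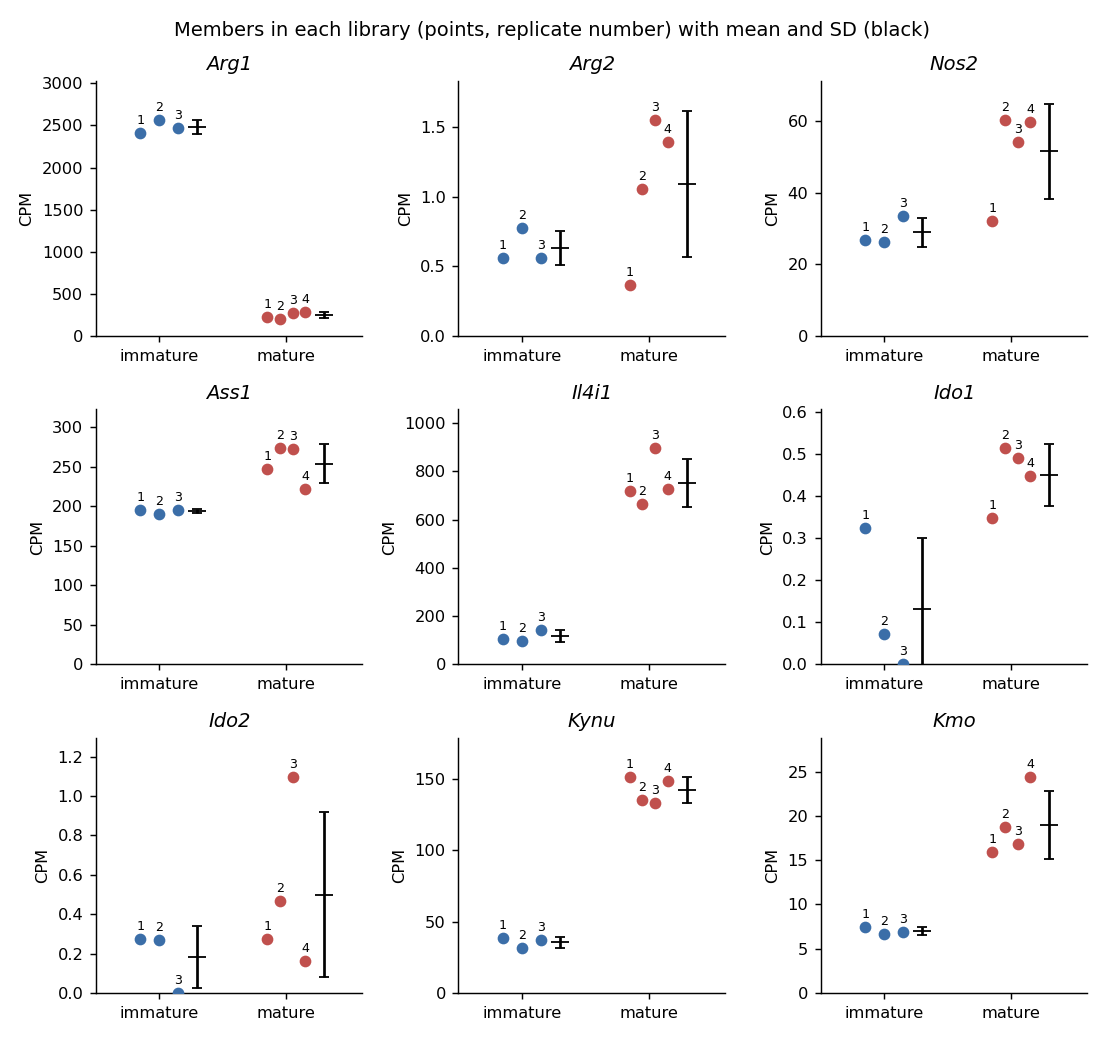
CPM of each member (y axis, linear and starting at 0) in the 3 immature (blue) and 4 mature (red) libraries, with replicate numbers above the points and black bars for the mean and SD, cut at 0 for Ido1. Arg1 fell from 2406 to 2566 CPM in immature libraries to 205 to 283 CPM in mature ones, whereas the Nos2 and Arg2 points of mature replicate 1 lay apart from the other mature points.

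The labelled state was checked against marker genes. All 10 markers of mature dendritic cells, which include Ccr7 and Cd80, rose, and their summed level went from 1400 to 1481 CPM in immature libraries to 13170 to 16400 CPM in mature ones. Ccl22 was the largest part of this sum, at 880 to 962 CPM in immature and 8024 to 10210 CPM in mature libraries. Elsewhere the study's flow cytometry defines mature dendritic cells as CD80+CD86+. If the sort used that gate, the rise of Cd80 and Cd86 was set by it and is no separate check. Of 10 general dendritic cell markers 5 rose and none fell, and Itgax, the gene of CD11c, was at 1386 CPM in immature cells and 1041 CPM in mature cells. Of 13 macrophage and monocyte markers 12 fell and none rose, with a sum of 14500 to 15130 CPM in immature and 1759 to 2379 CPM in mature libraries. Most of this sum was Lyz2, at 11690 to 12310 CPM in immature and 1205 to 1718 CPM in mature libraries. The immature libraries therefore held abundant RNA of macrophage marker genes, and of dendritic cell marker genes as well. The 10 general dendritic cell markers summed to 10530 to 11260 CPM in immature libraries and to 12260 to 17490 CPM in mature ones. Cd74 was the largest part, at a mean of 6604 CPM in immature and 8754 CPM in mature cells. Flt3, a receptor of conventional dendritic cells, was the lowest of the 10, at 0.438 CPM in immature and 5.97 CPM in mature cells. Genes of other organs also differed. The summed level of 14 heart muscle genes was 5.23 to 6.29 CPM in immature libraries, 28.5 CPM in mature replicate 1, and 866, 1026 and 892 CPM in mature replicates 2, 3 and 4. Mature replicate 2 also held kidney genes at a sum of 249 CPM and liver genes at 32.2 CPM, where the next highest library had 37.6 and 0.364 CPM. The kidney sum of 37.6 CPM, in mature replicate 3, was nearly all Nphs1 at 37.5 CPM. Neutrophil markers summed to at most 3.49 CPM, T, B and NK cell markers to 7.04 CPM, mast cell, basophil and eosinophil markers to 96.3 CPM and epithelial markers to 77.4 CPM in any library. Siglecf gave 90.9 of the 96.3 CPM and Cdh1 gave 57.8 of the 77.4 CPM, both in immature replicate 3. Total counts were 57359581 to 67973086 in immature and 54846746 to 62285010 in mature libraries.

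Arg1 (ENSMUSG00000019987; GRCm38 chr10:24915221-24927484, minus strand) showed the greatest change of the 9. Its level was 2406, 2566 and 2473 CPM in immature replicates 1 to 3, and 223, 205, 268 and 283 CPM in mature replicates 1 to 4. Each immature library thus lay far above each mature library. Immature cells averaged 2482 ± 80.4 CPM (SD, n = 3) and mature cells 245 ± 36.8 CPM (SD, n = 4), 10.1-fold less. The log2 fold change was -3.34 with an SE of 0.13 (95% interval -3.63 to -3.05, edgeR adjusted p = 4.07e-07). By FPKM, Arg1 ranked between 32 and 39 among all genes in the immature libraries and between 362 and 477 in the mature ones. Arg1 took 0.230% to 0.249% of all counts in immature cells and 0.0219% to 0.0292% in mature cells. In sorted bulk samples, fewer cells of a type and less RNA per cell cannot be told apart, and the macrophage and monocyte markers above fell in the same libraries as Arg1. Their part in the Arg1 result was not tested.

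Arg2 (ENSMUSG00000021125; chr12:79130777-79156301, plus strand), the mitochondrial arginase, was near the lower limit of detection. It had 33, 43 and 36 counts in the immature libraries and 24, 70, 82 and 87 counts in mature replicates 1 to 4, which is 0.631 ± 0.123 CPM (SD, n = 3) and 1.09 ± 0.527 CPM (SD, n = 4). Mature replicate 1 lay below every immature library and the other 3 mature libraries lay above them, so the groups overlapped. The log2 fold change of 0.79 ± 0.49 (SE) did not pass (edgeR adjusted p = 0.227, 95% interval -0.34 to 1.91). Without mature replicate 1 the value was 1.08 and passed the criteria (adjusted p = 0.0297), and with that library alone against the immature samples it was -0.76 (adjusted p = 0.398). Over all alternatives the adjusted p of Arg2 ran from 0.0297 to 0.558. The heart muscle genes divide the mature libraries in the same way, and their part in the Arg2 values was not tested. In GENCODE M21, 285 of the 1428 exon bases of Arg2 also lie in exons of Vti1b and 116 in exons of Gm48780, both on the opposite strand. Vti1b was at 58.1 CPM in immature and 45.9 CPM in mature cells, well above Arg2, and without strand its reads there cannot be told apart from those of Arg2.

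Nos2 (ENSMUSG00000020826; chr11:78920787-78960254, plus strand) was higher in 3 of the 4 mature libraries but missed the fold criterion. Immature replicates 1 to 3 held it at 26.9, 26.3 and 33.7 CPM, whereas mature replicates 1 to 4 held it at 32.1, 60.4, 54.4 and 59.7 CPM. Mature replicate 1 fell within the immature range, and the other mature libraries were above it. The log2 fold change was 0.83 ± 0.22 (SE), below the fold criterion, with an edgeR adjusted p of 0.0130. Leaving out mature replicate 1 raised it to 1.01 and past the criteria (adjusted p = 0.000354), whereas that library alone against the immature samples gave 0.17 (adjusted p = 0.403). Without immature replicate 1 or immature replicate 2 the adjusted p was 0.0539 and 0.0583. The adjusted p of Nos2 ran from 0.000338 to 0.403 over all alternatives. As with Arg2, the libraries with more Nos2 were the ones with heart muscle genes, and whether the 2 are connected was not tested.

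Ass1 (ENSMUSG00000076441; chr2:31470207-31520672, plus strand), which joins citrulline to aspartate on the way back to arginine, was at 195, 190.5 and 196 CPM in immature cells and at 247, 273, 273 and 221.5 CPM in mature cells. All mature libraries were above all immature ones. The difference was small, with a log2 fold change of 0.39 ± 0.092 (SE, 95% interval 0.18 to 0.60), under the fold criterion but with an edgeR adjusted p of 0.00828.

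**Figure D2:**
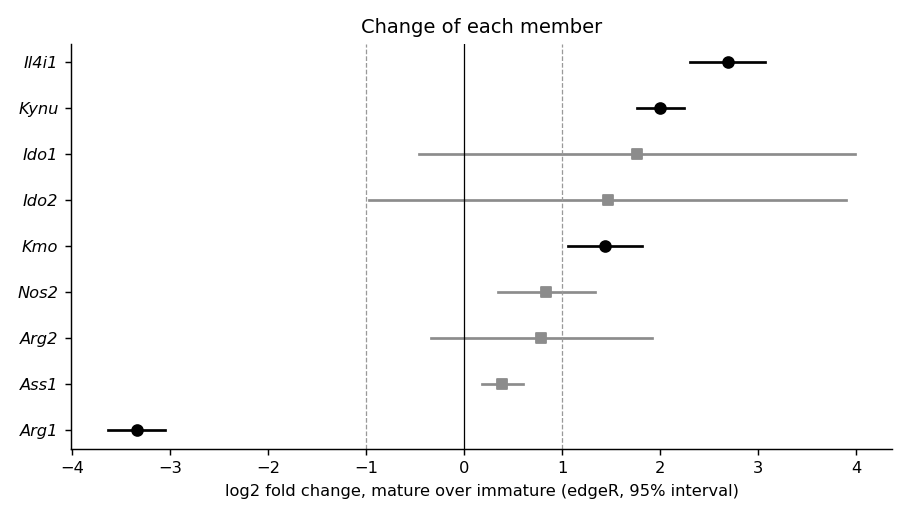
Log2 fold change of each member, mature over immature (x axis), with its 95% interval from the edgeR fit. Black circles passed the criteria and grey squares did not, dashed lines mark the fold criterion, and the wide intervals belong to Ido1, Ido2 and Arg2, the members with the fewest counts.

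Promoter sequence was held for 3 of the 9 members (Ass1, Kmo and Il4i1) in the RefSeq table on GRCm38.p6. The 250 bases before each start were searched on both strands for motifs of factors that act on this pathway. Those motifs were STAT6 (TTC and GAA with 4 bases between them), C/EBP (TTGC and AA with 2 bases between), the aryl hydrocarbon receptor core (GCGTG), the interferon response element (GAAA and GAAA with 2 bases between) and the NF-kappa B consensus. The aryl hydrocarbon receptor responds to kynurenine, which is why its core is shown here. The core was the one motif found, at 2 places before the Ass1 start, on the minus strand. They read as follows, with the core in capitals as it stands on the plus strand.
Ass1, chr2:31470123-31470177: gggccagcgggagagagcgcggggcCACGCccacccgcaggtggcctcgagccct
Ass1, chr2:31470048-31470102: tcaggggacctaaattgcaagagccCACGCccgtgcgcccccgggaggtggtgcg
Among 32851 promoters of the table, 28.2% held this core within 250 bases before the start, 5.85% held the STAT6 motif, 9.56% C/EBP, 2.98% the interferon response element and 7.25% the NF-kappa B consensus. A match of 5 bases is therefore common, and no match says only that these letters are not in the window.

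The balance between enzymes was followed as ratios of FPKM + 0.01 within each library, which depth does not move. Arg1 exceeded Nos2 by 178, 194 and 146 times in immature replicates 1 to 3 and by 13.8, 6.75, 9.81 and 9.42 times in mature replicates 1 to 4. The highest mature ratio was thus about 10 times below the lowest immature one. On the log2 scale the mean ratio went from 7.42 to 3.27, a difference of -4.16. The ratio of Arg1 to Arg2 fell by 3.97 on the same scale, and that of Arg1 to Ass1 by 3.74, from 13.4 to 14.6 times in immature cells to 0.813 to 1.38 times in mature cells. Arg1 and Ass1 were therefore at near-equal FPKM in mature BMDCs. Each of these differences reached p = 0.0571 in a two-sided exact permutation test over 35 labelings, the smallest p that 3 against 4 libraries allow, and 0.0714 after adjustment over 5 ratios.

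**Figure D3:**
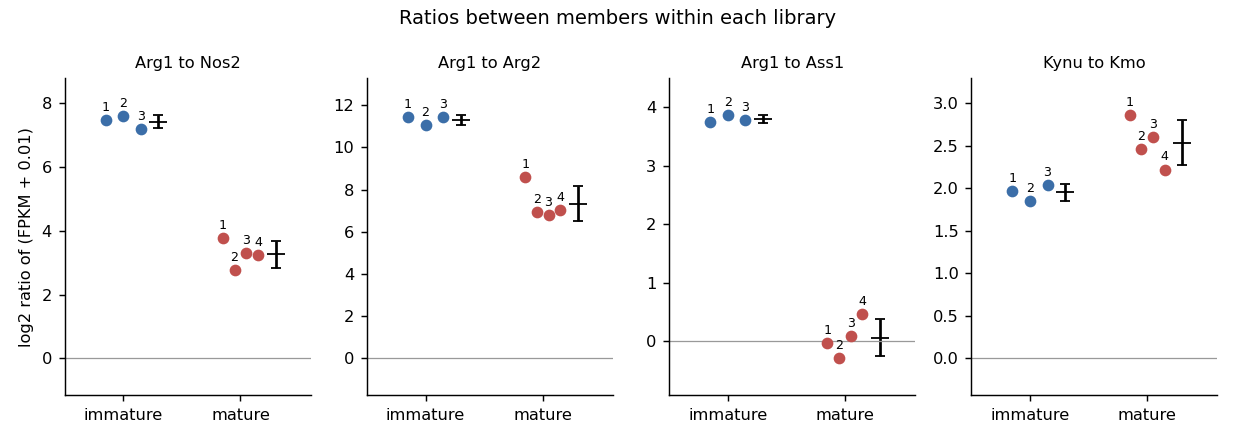
Log2 ratio of FPKM + 0.01 between pairs of members (y axis) in the 3 immature (blue) and 4 mature (red) libraries, with the mean and SD in black. The 3 Arg1 ratios were lower in every mature library than in any immature one, and Kynu to Kmo was higher.

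The genes around arginine did not move as a block. Of 5 transporters of arginine and other cationic amino acids, Slc7a2 (760 to 232 CPM, log2 fold change -1.71) and Slc7a1 (64.8 to 27.0 CPM, -1.26) fell, and Slc7a7, which exports arginine with its partner Slc3a2, rose from 48.0 to 142.5 CPM (1.57). Slc7a2 encodes the CAT2 importer that feeds arginase and NOS2 in macrophages. Of 4 tested genes of the urea cycle and citrulline recycling, Slc25a15, the mitochondrial ornithine carrier, fell by 1.13 on the log2 scale and none rose. Asl, the enzyme after ASS1, went from 56.9 to 97.6 CPM, a log2 fold change of 0.78 that was below the fold criterion (edgeR adjusted p = 0.000547). Among 6 genes of the other nitric oxide synthases and of dimethylarginine breakdown, Nostrin, which binds the endothelial synthase, rose by 1.53 and the other 5 did not pass. Nos1 and Nos3 were at or below 0.722 CPM on average in both groups. Of 7 genes that make tetrahydrobiopterin, the cofactor of nitric oxide synthases, 2 rose and none fell. These were Spr, which catalyses the last step (32.6 to 77.0 CPM, 1.24), and Pcbd1 (0.176 to 1.22 CPM, 2.78). Pcbd1 was low and uneven, at 0.485, 1.97, 1.63 and 0.800 CPM in mature replicates 1 to 4. It was highest in mature replicate 2, the library with kidney and liver genes, and their part in its rise was not tested. Gch1, the first and rate-limiting step, was at 21.2 CPM in immature and 15.3 CPM in mature cells (-0.48, below the fold criterion).

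Ornithine, the product of arginase, feeds the synthesis of polyamines and proline. Of 23 tested genes in this group 2 rose and 1 fell, with a median log2 fold change of -0.24. Azin2, an antizyme inhibitor that protects ornithine decarboxylase, rose from 9.90 to 63.3 CPM (2.68), and Prodh, proline oxidase, from 4.28 to 13.5 CPM (1.66). Gatm, which uses arginine to make the precursor of creatine, fell from 114 to 39.1 CPM (-1.54). A further 10 genes passed on adjusted p but not on fold.

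Il4i1 (ENSMUSG00000074141; chr7:44816387-44840804, plus strand) had the largest rise of the members. Its level was 107, 98.8 and 144 CPM in immature cells and 720, 665, 895 and 726 CPM in mature cells. Every mature library was more than 4 times above the highest immature one. Mature cells averaged 752 ± 99.4 CPM (SD, n = 4) and immature cells 117 ± 24.1 CPM (SD, n = 3), a 6.45-fold difference, with a log2 fold change of 2.69 ± 0.17 (SE, 95% interval 2.31 to 3.07, edgeR adjusted p = 3.60e-06). This value carries a limit from the annotation. In GENCODE M21, 3423 of the 4080 exon bases of Il4i1, or 83.9%, also lie in exons of Tbc1d17 on the opposite strand. All of these bases fall in 1 exon of this GTPase-activating protein gene, of 6798 bases at chr7:44834623-44841420. The other annotated Tbc1d17 exons lie wholly past the last base of Il4i1. Tbc1d17 rose as well, from 132 ± 11.3 to 513 ± 57.4 CPM (log2 fold change 1.96, edgeR adjusted p = 2.55e-06). The library kit marks strand, but whether the counting used it is not given in the sources used here. Without strand, reads of Il4i1 and Tbc1d17 over the shared bases cannot be told apart, so neither value is certain. The other overlaps were small, at 97 bases with Nup62 (log2 fold change 0.22) and 82 bases with Atf5 (-0.80).

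**Figure D4:**
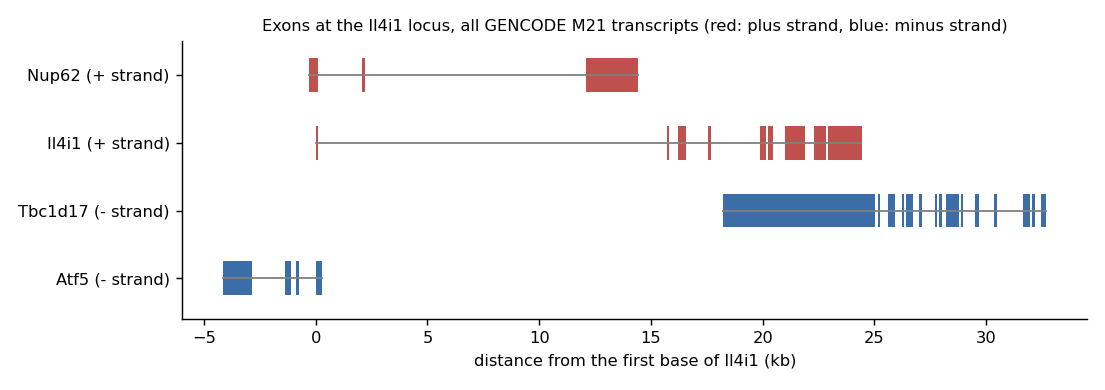
Exons of Il4i1 and the 3 genes that overlap them, from all GENCODE M21 transcripts, against the distance in kb from the first base of Il4i1 (x axis). Red marks the plus strand and blue the minus strand, and the 6798-base exon of Tbc1d17 spans most exons of Il4i1.

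Kynu (ENSMUSG00000026866; chr2:43555329-43682715, plus strand) encodes kynureninase, which cleaves kynurenine to anthranilate and 3-hydroxykynurenine to 3-hydroxyanthranilate. It was at 38.2, 31.1 and 37.1 CPM in immature cells and at 151, 135, 133 and 148.5 CPM in mature cells. The groups did not overlap and the 4 mature libraries lay close together. The mean rose 4.00-fold, from 35.5 ± 3.80 (SD, n = 3) to 142 ± 9.24 CPM (SD, n = 4), with a log2 fold change of 2.00 ± 0.10 (SE, 95% interval 1.77 to 2.24, edgeR adjusted p = 1.34e-06).

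Kmo (ENSMUSG00000039783; chr1:175620381-175660853, plus strand) encodes kynurenine 3-monooxygenase, which hydroxylates kynurenine. It was at 7.50, 6.63 and 6.88 CPM in immature cells and at 16.0, 18.7, 16.8 and 24.4 CPM in mature cells, with no overlap. The rise was 2.71-fold, with a log2 fold change of 1.44 ± 0.17 (SE, 95% interval 1.06 to 1.82, edgeR adjusted p = 0.000142). Kynurenine aminotransferases use the same substrate. Of these, Kyat1 was at 4.35 CPM in immature and 8.60 CPM in mature cells (log2 fold change 0.98, edgeR adjusted p = 0.000525) and Kyat3 at 2.34 and 3.10 CPM (0.41, adjusted p = 0.207), so neither passed the criteria, and Aadat was not tested. The FPKM ratio of Kynu to Kmo was 3.60 to 4.13 in immature and 4.67 to 7.28 in mature libraries, a log2 difference of 0.59 (p = 0.0571, two-sided exact permutation test, 0.0714 adjusted over 5 ratios).

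Ido1 (ENSMUSG00000031551; chr8:24584136-24597009, minus strand) and its neighbour Ido2 (ENSMUSG00000031549; chr8:24531892-24576333, minus strand), the enzymes that open the tryptophan ring, were barely detected in either state. Ido1 had 19, 4 and 0 counts in immature replicates 1 to 3 and 23, 34, 26 and 28 counts in mature replicates 1 to 4. The mature libraries were all higher in CPM, but immature replicate 1 at 0.324 CPM came close to mature replicate 1 at 0.349 CPM. The log2 fold change was 1.76 ± 0.97 (SE, 95% interval -0.46 to 3.99) and did not pass (edgeR adjusted p = 0.173). Without immature replicate 1 it was 3.62 and passed (adjusted p = 0.0345), and over all alternatives the adjusted p ran from 0.0256 to 0.566. Ido2 had 16, 15 and 0 counts in immature cells and 18, 31, 58 and 10 counts in mature cells, and the groups overlapped. Its log2 fold change was 1.46 ± 1.07 (SE, 95% interval -0.98 to 3.90, edgeR adjusted p = 0.299). Neither gene passed with all 7 libraries, and for Ido1 this turned on immature replicate 1. The log2 ratio of Ido1 to Ido2 differed by 0.88 (p = 0.343, two-sided exact permutation test), with both genes at 0 in immature replicate 3. Tdo2, the hepatic enzyme for the same step, averaged 0.0762 CPM in immature cells and was at 0 counts in each mature library.

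Tryptophan enters cells through carriers shared with other amino acids. Of 6 genes for tryptophan uptake and tRNA charging 4 fell and none rose, with a median log2 fold change of -2.03 in RNA level. The 4 were transporters, namely Slc7a5 (162 to 37.1 CPM, -2.12), Slc7a8 (113 to 16.7 CPM, -2.76), Slc16a10 (20.8 to 4.25 CPM, -2.29) and Slc36a4 (110 to 28.7 CPM, -1.94). Slc7a5 and Slc7a8 encode the LAT1 and LAT2 exchangers of large neutral amino acids. Wars, the cytosolic tryptophanyl-tRNA synthetase, was at 211 and 119 CPM (-0.83, below the fold criterion), and Wars2, its mitochondrial counterpart, at 8.66 and 7.84 CPM (-0.14, edgeR adjusted p = 0.386). Tryptophan itself and its uptake were not measured.

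Downstream, of 10 other tested genes of the kynurenine path and NAD synthesis 4 rose and none fell, with a median log2 fold change of 0.83. Haao, which acts on the product of KYNU, rose from 21.1 to 71.4 CPM (1.76). Afmid, the formamidase that releases kynurenine, rose from 2.91 to 7.21 CPM (1.31), Naprt from 2.71 to 10.8 CPM (1.99) and Nmnat3 from 13.1 to 28.0 CPM (1.10). Nampt, which recycles nicotinamide, was the most abundant of the group and went from 188 to 98.5 CPM (-0.93, below the fold criterion). Qprt, the step that links the path to NAD, averaged 0.193 CPM in immature and 0.240 CPM in mature cells. Acmsd and Aadat, at 0 in every immature library, reached 0.846 and 1.45 CPM in mature replicate 2, the library with kidney and liver genes, and did not enter the test. Their part in the values of that library was not tested.

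Kynurenine and its relatives are ligands of the aryl hydrocarbon receptor. Ahr itself was at 14.6 CPM in immature and 16.4 CPM in mature cells (log2 fold change 0.17, edgeR adjusted p = 0.405). Of 6 tested genes of the receptor and its targets 1 fell, Tiparp (88.6 to 38.3 CPM, -1.21), and none rose. A further 4 passed on adjusted p alone, and these were all lower in mature cells, Cyp1b1 (-0.98) and Ahrr (-0.85) among them.

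Of 16 factors and receptors known to control the members 5 rose and 4 fell. The genes that rose were Nfkb2 (104 to 526 CPM, log2 fold change 2.34), Irf8 (109 to 468 CPM, 2.11), Relb (41.5 to 256.5 CPM, 2.63), Nfkb1 and Il4ra. Relb is also among the mature dendritic cell markers and Irf8 among the dendritic cell markers above. The genes that fell included Pparg (17.0 to 3.08 CPM, -2.47), whose product acts with STAT6 on Arg1 in macrophages, together with Cebpb, Hif1a and Ifngr1. Cebpb, an activator of Arg1, went from 259 to 60.2 CPM (-2.10). Il4ra, the gene of an IL-4 receptor chain, went the other way, from 245 to 516 CPM (1.08). Stat6, which transmits IL-4, was level at 277 and 272 CPM (log2 fold change -0.03, edgeR adjusted p = 0.810). The part of these genes in the Arg1 result was not tested. Over all 9 lists 28 of 83 tested genes were called, 15 higher and 13 lower, which is 33.7% against 23.1% of all genes.

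**Figure D5:**
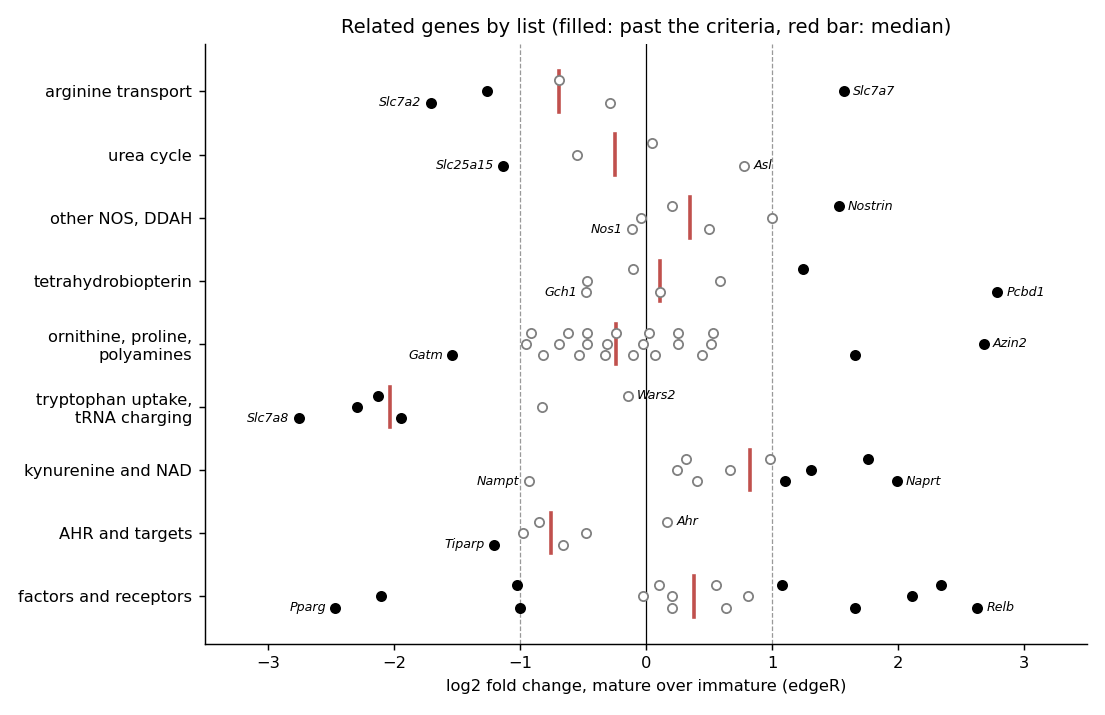
Log2 fold change, mature over immature (x axis), of the 83 tested related genes by list, with filled points past the criteria, a red bar at each median and the outermost genes named. The list of tryptophan uptake and tRNA charging has its median at -2.03, and that of the kynurenine path and NAD synthesis at 0.83.

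The order of the members by FPKM changed between the states. In immature cells Arg1 led at 979 FPKM, followed by Ass1 at 70.5, Il4i1 at 25.0, Nos2 at 5.72, Kynu at 5.06, Kmo at 1.30, Arg2 at 0.383, Ido1 at 0.0633 and Ido2 at 0.04 FPKM. The ranges of Nos2 and Kynu overlapped, as did those of Ido1 and Ido2, and the other neighbours were apart. In mature cells Il4i1 led at 174 FPKM, with the limit on its reads given above, before Arg1 at 104, Ass1 at 99.3, Kynu at 21.9, Nos2 at 11.0, Kmo at 3.81, Arg2 at 0.713, Ido1 at 0.23 and Ido2 at 0.125 FPKM. Arg1 and Ass1 overlapped there, and so did Arg2, Ido1 and Ido2 with their neighbours.

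As a description, the genes most like each called member were found by the correlation of log2 CPM over the 7 libraries among 8969 genes with a mean of at least 10 CPM. For Arg1 these were F7, the gene of a coagulation factor (r = 0.9998), and Adam15, a membrane protease gene (r = 0.9997). Pip4k2a was the most like Kynu, and the pairs for the others were, for Kmo, Gbp2 and Prpf6 and, for Il4i1, Paics and Nipsnap1, with r between 0.9964 and 0.9991. All points share the division into mature and immature libraries, and 474 genes reached an r above 0.99 with Arg1, 228 with Kynu, 150 with Il4i1 and 9 with Kmo.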

How the data were processed

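The authors deposited one table with raw gene counts and FPKM values for all 7 libraries, made from poly(A)-selected, paired-end RNA sequencing. The submitters' processing notes list cutadapt 1.9, HISAT2 2.2.1, StringTie 2.1.6, DESeq2, edgeR and the build mm9, without role or order. The deposited coordinates matched GENCODE M21 (GRCm38) in chromosome and start for 99.5% of 28588 shared gene identifiers, so positions are given on GRCm38. Whether the counting used strand is not given in the sources used here. Low deposited counts favoured multiples of 4 (6956 values of 4 against 3473 of 3), so 1 count may be less than 1 read pair, and counting error is not quoted.

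Genes were filtered with filterByExpr, scaled by TMM and tested with the quasi-likelihood test of edgeR 4.0.16 in R 4.3.3 on all 7 libraries with group as the one term. Benjamini-Hochberg adjustment ran over all 17461 genes, and the script was tested on simulated data. Standard errors are the log2 fold change over the square root of F. Alternatives used DESeq2 1.42.0, limma 3.58.1 on log2(FPKM + 1) or log2(FPKM + 0.1), other filters and scalings, a replicate block, and libraries left out. Ratios of FPKM + 0.01 were compared by exact permutation.

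The study's criteria were kept. All members are named, and from each related list at most 4 called genes are given with values, with Cebpb and Il4ra added. List genes named without passing the criteria, and Cebpb and Il4ra, were picked with their values in view. The members and lists were chosen with earlier results of these data known. Cps1, Otc and Tph1 were not analysed here, and 1 motif and 1 gene that the rules would name are not reported here. No reads were used.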

Additional observations from a re-analysis of the deposited data

Results flagged for a closer look

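In the log2 ratio of Arg1 to Arg2, mature replicate 1 lay apart from the other 3 mature libraries. Its ratio was 8.59 against 6.94, 6.79 and 7.01 in mature replicates 2, 3 and 4, and its gap to the nearest of them took 0.879 of the range of the group, above Dixon's 95% critical value for 4 samples. Arg2 had 24 counts in that library and 70 to 87 in the others. Of 14 values compared in this way 1 stood out, and chance alone would give 0.7. The log2 difference of this ratio between the groups ran from -4.39 to -3.79 over 9 alternatives.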

How the results depend on the processing

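Arg1, Il4i1, Kynu and Kmo passed the criteria in the same direction under each of 18 alternatives, with log2 fold changes of -3.45 to -3.23, 2.58 to 2.87, 1.91 to 2.12 and 1.05 to 1.55. The adjusted p alone was among the 18, and it is the main fit without its fold criterion, so no called member could fail it. None of the 18 alternatives changes how strand was counted, which bears on Il4i1. Of 151 alternative log2 fold changes of the members 145 kept their direction and side of the threshold, 5 newly passed it and 1 reversed. Among the 5 were Nos2 and Ass1 on the adjusted p alone, where the fold changes are those of the main fit. The exact permutation test of the ratios cannot go below p = 0.0571, so it says nothing about their stability. The number of members called was 4 in 15 of these alternatives, 5 without immature replicate 1, and 6 both without mature replicate 1 and on the adjusted p alone, where Nos2 (0.83) and Ass1 (0.39) were added. Leaving out each library in turn moved Arg2 between 0.59 and 1.08, Nos2 between 0.76 and 1.01 and Ido1 between 1.17 and 3.62, the highest values passing. With mature replicate 1 alone against the immature libraries Arg2 turned to -0.76, and the spread of that lone library is assumed to be that of the others. The cause was not tested. The number of called genes was 4037 in all and fell to 2561 with limma on log2(FPKM + 0.1), 1768 with limma on log2(FPKM + 1) and 1716 without its filter. On the adjusted p alone it was 8053, and 52 in place of 28 for the related genes. Numbers of the libraries did not pair them, with correlations of -0.0011 to 0.0285 between same-numbered samples, and the replicate block gave 4 members and 3616 genes and changed no call of a member. Dividing the counts by 4, an alternative chosen after seeing the data, gave 4 members and 3667 genes. Ido1 and Ido2 have no value under that alternative, the filter of 100 counts or limma with its filter, and Arg2 has none under the last 2. Arg2, Ido1 and Ido2, with at most 87 counts per library, have the widest intervals.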
